A study of Mus musculus with 2 samples.

Results

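The genes described here encode 40 nuclear receptors of the mouse, all of the family except the master adipogenic receptor Pparg, the corticosteroid receptors and a few others that were not part of the list. They were chosen by family membership, with earlier results of these data known. A region was assigned to a gene when at least 1 base of it lay in the RefSeq gene body (mm10) or within 5 kb of either end. Of the 34139 regions in the authors' deposited list, 96 met this rule, at 24 of the 40 genes. The regions themselves were selected on measured methylation, because the list holds places where the 2 libraries differed. Every count and score below is therefore a description of that selection, and no test was made. The first library came from CD137+ adipose progenitors and the second from PDGFRα+ (CD140) adipose progenitors, both from C57BL/6 mice and both treated with DEX (dexamethasone, a synthetic agonist of the glucocorticoid receptor). Cells were sorted with magnetic beads from subcutaneous or visceral fat, grown, and driven towards adipocytes with an adipogenic cocktail, per the labels' protocols. The labels name neither the depot nor the number of animals behind each library, and DEX was common to both. The sorted identity of the cells could not be checked, since no expression was measured.

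Nuclear receptors are transcription factors that bind DNA through a zinc finger domain and, in many cases, change their activity when a small lipophilic ligand such as a retinoid, thyroid hormone or steroid occupies the ligand pocket. Many of them bind repeats of one short half-site, alone, as homodimers or as heterodimers with a retinoid X receptor. In fat, members of the family act in progenitor commitment, in the clock, in lipid handling and in mitochondrial gene expression. CpG methylation at their control regions is one layer of their own regulation.

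The deposited score has a sign and a size but no defined unit. Scores grow with the width of a region, so a large score need not mean a large methylation difference. The name of the list gives CD140 and then CD137. Subtracted in that order, a negative score would stand for lower methylation in the PDGFRα+ library, but nothing states the order, so only the sign of each score is given and not which library was lower. Read depth and methylation levels are unknown, and each group is 1 library, so no value has a replicate error. Over the whole list 67.4% of regions were negative, the median width was 112 bp and the median absolute score 49.4.

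At 4 of the 37 genes with an annotated start in the RefSeq promoter table (GRCm38.p6, the assembly of mm10), a region overlapped the window from 250 bases before the start to 50 bases after its first base. Over all protein-coding genes in that table the share was 1.02%. The 250 bases before each of these starts are shown 5′ to 3′ on the gene's strand, with the bases inside the deposited region in capitals, because they are the places where a methylation difference met an annotated start of a nuclear receptor gene. The sequences are from RefSeq, at chr13:78196450-78196699 (minus strand) for Nr2f1, chr1:167618015-167618264 (plus strand) for Rxrg, chr1:136953631-136953880 (minus strand) for Nr5a2 and chr2:57124004-57124253 (minus strand) for Nr4a2.
Nr2f1: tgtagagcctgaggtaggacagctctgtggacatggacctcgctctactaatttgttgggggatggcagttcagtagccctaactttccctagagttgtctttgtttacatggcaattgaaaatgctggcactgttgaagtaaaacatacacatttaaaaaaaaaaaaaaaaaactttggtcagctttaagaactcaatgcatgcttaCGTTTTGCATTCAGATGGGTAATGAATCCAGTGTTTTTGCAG
Rxrg: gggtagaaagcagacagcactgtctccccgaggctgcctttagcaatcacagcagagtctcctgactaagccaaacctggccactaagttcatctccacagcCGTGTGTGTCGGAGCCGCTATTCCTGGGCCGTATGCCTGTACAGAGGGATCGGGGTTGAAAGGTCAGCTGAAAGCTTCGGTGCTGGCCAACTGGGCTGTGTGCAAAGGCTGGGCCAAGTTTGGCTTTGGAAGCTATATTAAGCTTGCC
Nr5a2: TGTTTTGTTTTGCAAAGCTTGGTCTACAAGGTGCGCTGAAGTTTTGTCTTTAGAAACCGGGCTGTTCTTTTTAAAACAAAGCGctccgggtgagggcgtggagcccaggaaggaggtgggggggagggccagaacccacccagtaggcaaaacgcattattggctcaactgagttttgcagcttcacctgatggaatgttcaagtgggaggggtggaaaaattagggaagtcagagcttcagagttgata
Nr4a2: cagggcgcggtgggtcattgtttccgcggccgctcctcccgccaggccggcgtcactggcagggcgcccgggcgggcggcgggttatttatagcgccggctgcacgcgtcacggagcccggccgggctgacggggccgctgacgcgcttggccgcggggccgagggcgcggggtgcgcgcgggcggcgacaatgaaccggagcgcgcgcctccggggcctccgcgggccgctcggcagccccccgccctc

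These starts differed in CpG content. The Nr2f1 sequence, before an inner start of that gene, held 2 CpG dinucleotides, 1 of them in the 42 bases inside the region, and the Rxrg sequence held 7, of which 6 lay in the 148 bases inside the region. The Nr5a2 sequence held 6, with 3 in its 83 bases inside the region. At Nr4a2 the region began past the first transcribed base, covering 12 of the 50 bases after it and 0 of the 250 before it, and those 250 bases held 44 CpG dinucleotides. The median was 6 over all 32851 start windows and 10.5 over the 54 windows of the family. The nuclear receptor half-site AGGTCA, searched on both strands (TGACCT on the other) without regard to other motifs, occurred in 8 of the 54 windows (14.8%) and in 16.3% of all 32851 windows. Among the 4 windows with a region only that of Rxrg held it, inside the capitals.

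Across the family, 60.0% of genes (24 of 40) had a region, against 35.1% of all 21887 protein-coding genes. Receptor genes are long, with a median of 46.8 kb against 17.2 kb, and longer genes carry regions more often. In the longest class, 300 kb or more, 95.9% of protein-coding genes and 5 of 5 receptor genes had one. From 30 to 100 kb the figures were 51.9% and 8 of 14, and below 10 kb they were 13.9% and 3 of 7. Per Mb of gene and flank the family held 19.2 regions, and 16.7 without Nr2f1 and Nr2f2, beside 16.2 for protein-coding genes pooled. Scores of 100 or more in either direction occurred at 15 of the 40 genes, beside 10.8% of protein-coding genes. Among protein-coding genes this share also rose with gene length, whereas among receptor genes it did not rise steadily. Below 10 kb the share was 2 of 7 receptor genes beside 3.90% of protein-coding genes, and from 10 to 30 kb 4 of 9 beside 6.69%. From 30 to 100 kb it was 4 of 14 beside 14.3%. From 100 to 300 kb it was 2 of 5 beside 33.0%, and from 300 kb 3 of 5 beside 49.7%. Thra and Nr1d1 both counted through the same region of -180.2.

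**Figure D1:**
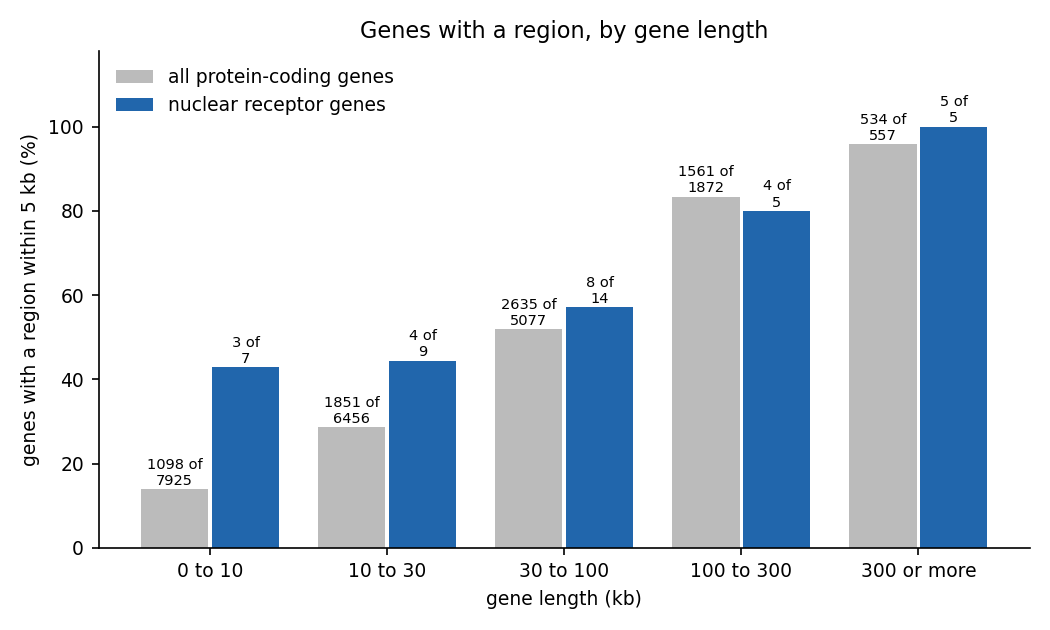
Share of genes (y axis, percent) that had a region by the 5 kb rule, by gene length in kb (x axis), for all protein-coding genes (grey) and for the 40 nuclear receptor genes (blue), with the numbers of genes above the bars. Both rise with length, from 13.9% of all protein-coding genes below 10 kb to 95.9% from 300 kb.

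Signs at the family were close to the whole list. Of the 96 regions, 69 were negative, or 71.9% (95% Wilson interval 62.2 to 79.9, which covers counting of regions only), and 67.5% of the 83 regions outside Nr2f1 and Nr2f2. By gene, 13 of 40 had only negative regions, beside 18.2% of protein-coding genes. Both signs occurred at 11, and 0 had only positive regions, beside 7.33% of protein-coding genes. Of the 24 receptor genes with a region, 13 had only negative regions, beside 3980 of the 7679 protein-coding genes with a region. Only positive regions were found at 0 of the 24, beside 1604 of the 7679. Several of the 13, such as Rorb and Vdr, had a single region and could not hold both signs. Positions were mostly internal, with 90 regions at least partly inside a gene body and 6 only beside one. The files used here give gene bodies and starts but no exons, so exonic and intronic positions could not be told apart. Of the 95 regions at genes with an annotated start, 10 lay within 2 kb of one. No share over the whole list was available for this distance, and the 10 include all 3 regions at Nr2f1.

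**Figure D2:**
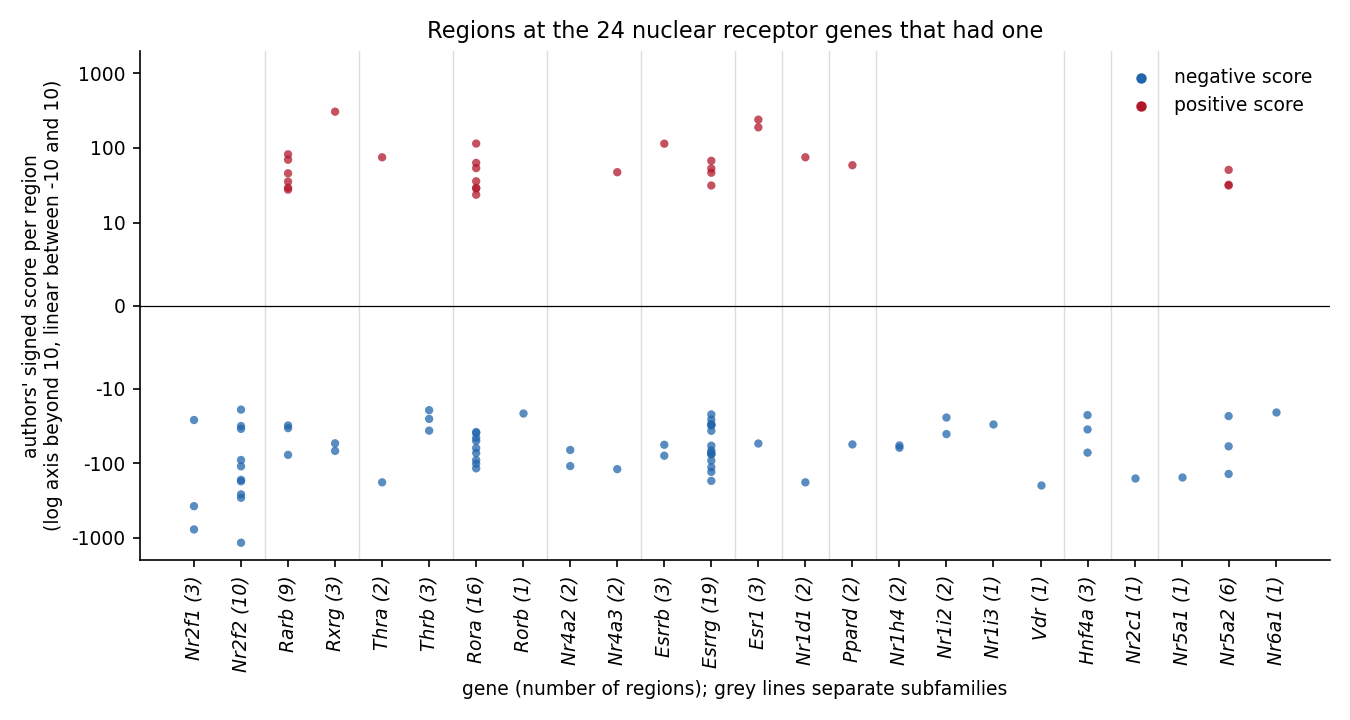
Authors' signed score of each region (y axis, logarithmic beyond 10 in either direction) at each of the 24 nuclear receptor genes with a region (x axis, number of regions in brackets), with negative scores in blue and positive scores in red. Nr2f1 and Nr2f2 reach -770.1 and -1160.4, whereas no other gene of the family goes below -198.

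The COUP-TF genes held the strongest and widest regions of the family. Nr2f1 and Nr2f2 encode COUP-TFI and COUP-TFII, orphan receptors that act mostly as repressors and are known for roles in mesenchymal, neural and venous cell identity. Together they had 13 regions, all 13 negative, at 291 regions per Mb of gene and flank. Their median width was 458 bp and their median absolute score 167. Regions of 500 bp or more numbered 6 of 13 here and 7 over the whole family, and lay at 3 receptor genes, beside 2.04% of protein-coding genes. The third COUP-TF gene, Nr2f6, had none, and its nearest region was 98.8 kb away.

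At Nr2f2 (chromosome 7, 70351946 to 70366746, minus strand), 10 regions covered 22.7% of the 24.8 kb window. The strongest scored -1160.4 over 1621 bp at 70347345 to 70348965, beyond the 3′ end of the gene and 2.98 kb from it. It was number 13 of the whole list by absolute score and number 6 among negative regions. The next lay at 70357255 to 70358150 inside the gene (-290.2 over 896 bp), and the following ones at 70349242 to 70349961 (-261 over 720 bp) and 70350049 to 70350464 (-175 over 416 bp), again past the 3′ end. Another 6 regions scored between -167 and -19.2. A pair of these stood before the start, at 0.836 kb and 2.34 kb from it, inside the long noncoding RNA gene B130024G19Rik as well as the flank of Nr2f2, so they cannot be given to 1 gene. Only 3 protein-coding genes of the genome had more regions of 500 bp or more than the 4 at Nr2f2.

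Nr2f1 (chromosome 13, 78188971 to 78198873, minus strand) had 3 regions, all inside the gene. The widest, 1291 bp at 78195201 to 78196491 with a score of -770.1, ran over the inner annotated start at 78196449 whose upstream sequence is printed above, and was number 33 of the whole list. A second followed at 78194314 to 78194889 (-376 over 576 bp). The last, nearer the outer start, was narrow and weak, with -26.4 over 77 bp at 78197024 to 78197100. Regions covered 9.77% of the Nr2f1 window, and no receptor gene outside this pair exceeded 2.11%.

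Large scores at the pair went with large widths. Per bp, the COUP-TF regions had a median absolute score of 0.368, beside 0.430 over the whole list. Over the regions of 500 bp or more in the whole list that median was lower, at 0.273. The strongest region at Nr2f2 scored -0.716 per bp and the widest at Nr2f1 -0.597 per bp, while a 671 bp region at Nr2f2 scored only -19.2, or -0.0285 per bp. In the whole list, 2.56% of regions were 500 bp or wider and these were negative in 74.8%, beside 67.2% of narrower ones.

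**Figure D3:**
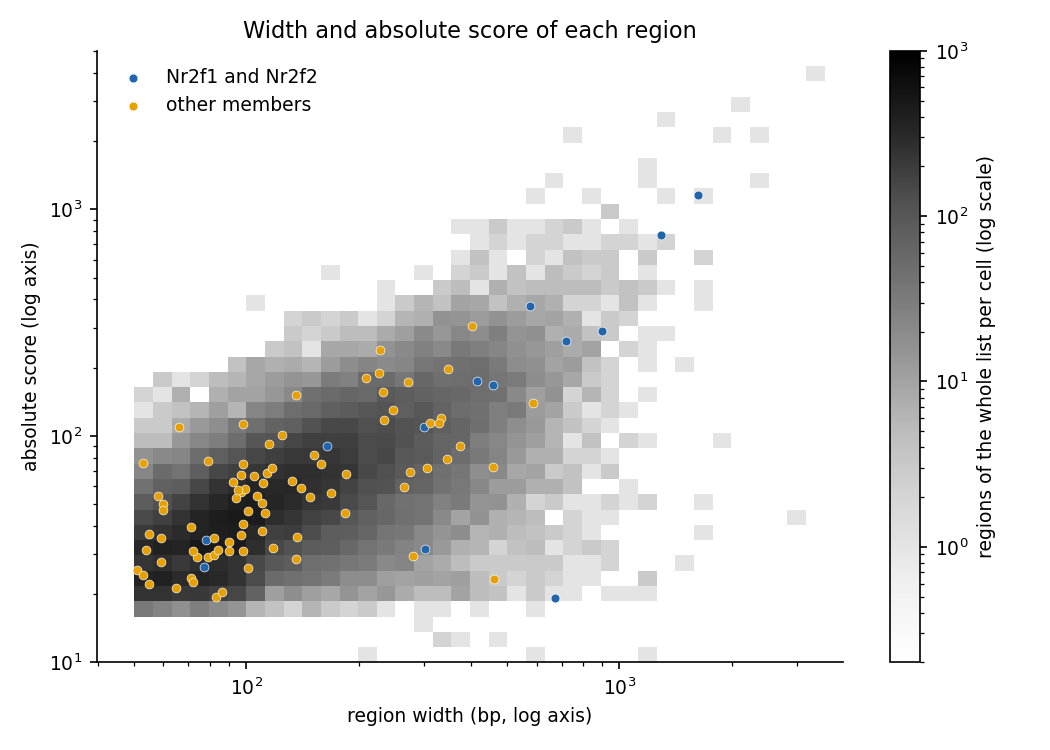
Width in bp (x axis) and absolute score (y axis) of each region, both on logarithmic axes, for the whole list (grey cells, darker with more regions) and for the regions at Nr2f1 and Nr2f2 (blue) and at the other nuclear receptor genes (orange). Most orange points lie where the list is dense, and the blue points reach 1621 bp and a score of -1160.4.

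The negative sign did not extend over the surroundings of either gene. Between 5 and 50 kb from Nr2f2 there were 10 further regions, 7 of them positive. These included a group of 6 positive regions between 21.0 and 26.5 kb past the 3′ end, with scores from 51.9 to 183, and 3 weak negative regions nearer the gene. At Nr2f1 the region 7.56 kb past the 3′ end scored 297 over 252 bp, and 3 of the 4 regions between 5 and 50 kb were positive. With 50 kb on both sides the negative share at the COUP-TF genes was 63.0% of 27 regions.

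**Figure D4:**
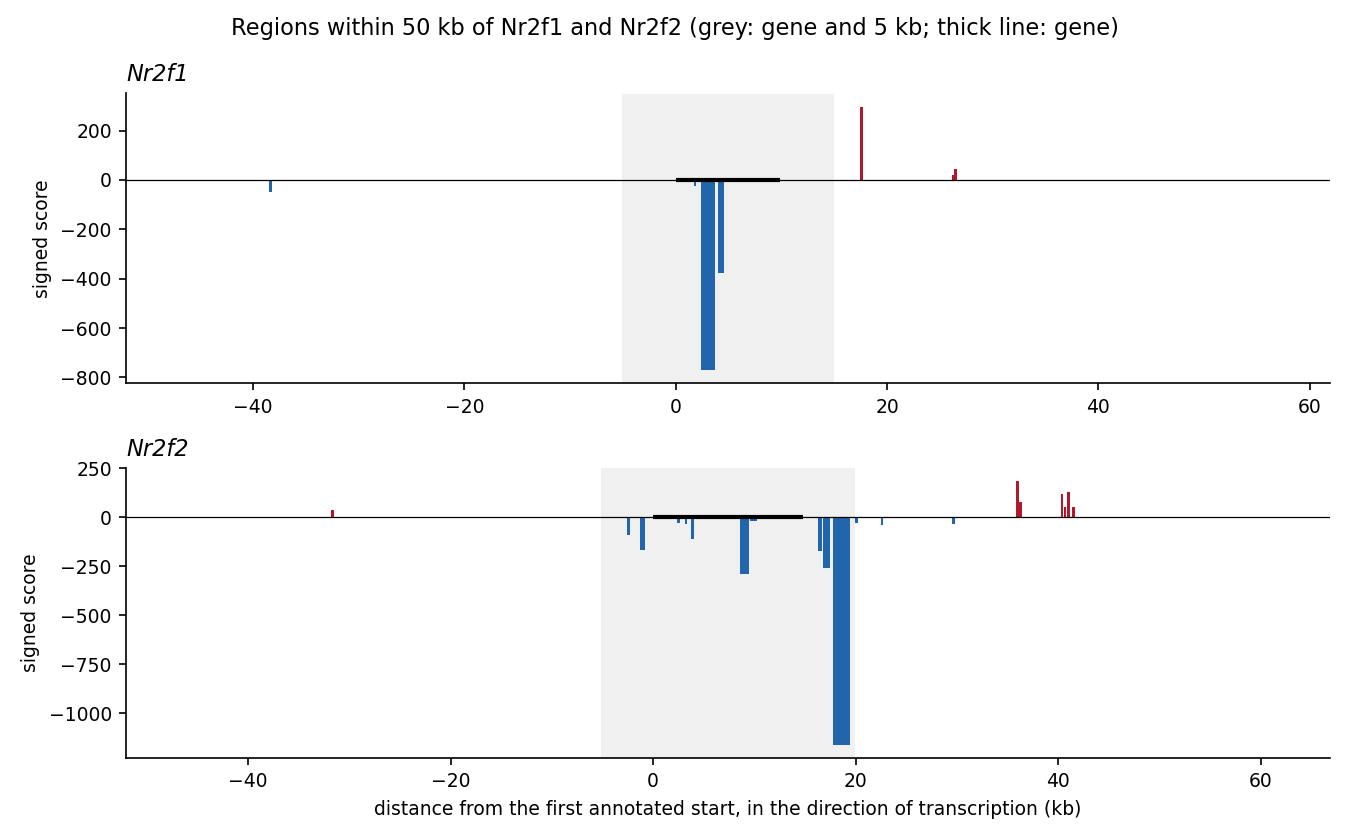
Signed score (y axis) of each region within 50 kb of Nr2f1 and Nr2f2 against the distance in kb from the first annotated start along the direction of transcription (x axis), with negative regions in blue, positive in red, the gene as a thick line and the gene with 5 kb on both sides shaded. All bars in the shaded parts point down, and at both genes positive bars stand past the 3′ end outside the shading, up to 297 at Nr2f1 and 183 at Nr2f2. Bar width is the width of the region, with a minimum of 0.25 kb so that narrow ones can be seen.

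The retinoid receptors carried 12 regions at 2 of 5 genes, with 7 positive and 5 negative. They bind retinoic acids (the RAR genes) or serve as common heterodimer partners (the RXR genes). Rxrg, the partner with the most restricted expression, held the most positive score of the family, 306 over 404 bp at chromosome 1, 167618117 to 167618520, over the inner start at 167618265 shown in the sequences. Its other regions were negative and narrower, -68.4 over 114 bp and -54.1 over 58 bp, at 2.35 kb and 9.22 kb downstream of that start.

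Rarb, itself a retinoic acid target, spans 651 kb of chromosome 14 and had 9 regions, 6 positive and 3 negative, none of which reached an absolute score of 100. Its strongest positive regions scored 82.1, 69.5, 45.7 and 35.4, and the remaining positive ones 29.3 and 27.6. The negative ones scored -77.2, -33.9 and -31.2, and that of -33.9 lay 1.15 kb downstream of the annotated start. Rarb had 13.6 regions per Mb, beside 14.6 for protein-coding genes of 300 kb or more. Rara, Rarg and Rxrb had none, with the nearest regions 5.91, 45.2 and 10.3 kb away.

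Thyroid hormone receptor genes had 5 regions. Thrb, of 381 kb, had 3, all weak and negative (-36.6, -25.5 and -19.5), although the median of protein-coding genes of 300 kb or more was 7 regions (quartiles 3 and 12). Thra, of 28.2 kb, had 2, of opposite sign, where protein-coding genes of 10 to 30 kb had a median of 0 (quartiles 0 and 1), and shared both with the neighbouring REV-ERB gene Nr1d1, a clock repressor. One of them, 209 bp at chromosome 11, 98768145 to 98768353 with a score of -180.2, lay where the gene bodies of Thra and Nr1d1 overlap. The other, 159 bp at 98763589 to 98763747 with a score of 74.9, was inside Thra and 4.19 kb from Nr1d1. The second REV-ERB gene, Nr1d2, had none within 156 kb.

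The ROR genes, clock activators that bind as monomers, had 17 regions, of which 10 were negative. All but 1 were at Rora, the longest gene of the family at 735 kb, with 9 negative and 7 positive regions. Its strongest negative scores were -117, -101, -90.4 and -72.8, and its strongest positive scores 114, 63.0, 53.6 and 35.8, with the remaining 8 between -62.5 and 29.2. The regions of -90.4 and -72.8 and a pair of others also lay in the long noncoding RNA gene Gm31262. None was closer than 121 kb to the annotated start, which counts only the 1 start in the table. Rora had 21.5 regions per Mb. Rorb had a single weak region (-21.3 over 65 bp).

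The NR4A genes encode orphan receptors induced rapidly by hormones and stress, and act without a known ligand. Nr4a2 had 2 regions, both negative, and that at its start (66 bp at chromosome 2, 57123900 to 57123965, overlapping the predicted gene LOC105244150) scored -109.1, or -1.65 per bp. Its other region, 105 bp and 13.7 kb downstream, scored -66.5. Nr4a3 had a negative region of -120.0 over 332 bp at chromosome 4, 48077096 to 48077427, and a positive one of 47.3 over 60 bp, both inside the gene. Nr4a1 had none within 14.9 kb.

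Oestrogen-related receptors activate mitochondrial and oxidative genes together with PGC-1 coactivators. Esrrg had more regions than any other gene of the family, 19 over 606 kb, of which 15 were negative. The strongest was -172 over 271 bp at chromosome 1, 188184967 to 188185237, followed by -131, -113 and -92.3. All 4 positive ones were weaker, at 67.2, 53.0, 46.5 and 31.4, and the other 11 negative ones lay between -76.0 and -22.2. The region of 67.2 also lay in the long noncoding RNA gene 9330162B11Rik, and that of -22.2 in the long noncoding RNA gene Gm36388. At 30.8 regions per Mb Esrrg stood above the 14.6 of genes in its length class. Esrrb had 3, with scores of -56.6 (97 bp), -79.3 (346 bp) and 114 (329 bp), the positive one nearest the 3′ end. Esrra, the short gene of the group, had none within 96.6 kb.

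**Figure D5:**
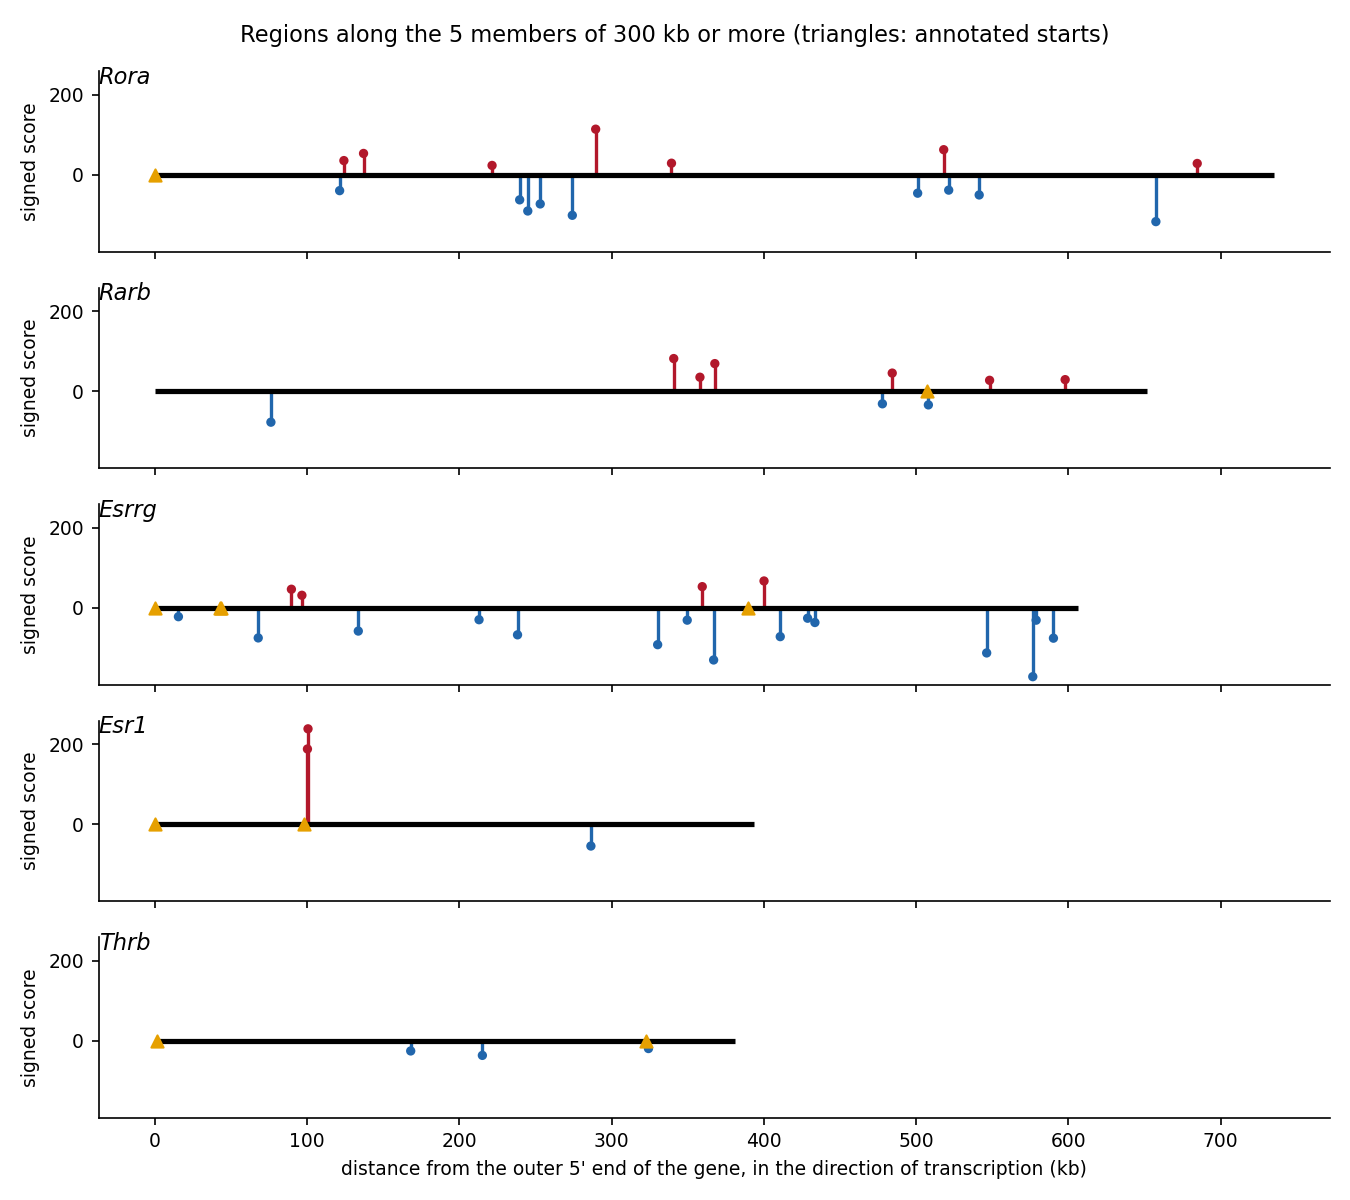
Signed score (y axis) of each region along the 5 nuclear receptor genes of 300 kb or more against the distance in kb from the outer 5′ end of the gene in the direction of transcription (x axis), with negative regions in blue, positive in red and annotated starts as triangles. Rora, Rarb and Esrrg hold 16, 9 and 19 regions spread along the gene, whereas at Esr1 a pair of positive regions stands together and Thrb has 3 weak ones.

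The 6 subfamilies are set side by side here by sign and width. The negative share was 100% of 13 regions at the COUP-TF genes, 77.3% of 22 at the oestrogen-related genes, 80.0% of 5 at the thyroid, 75% of 4 at the NR4A, 58.8% of 17 at the ROR and 41.7% of 12 at the retinoid genes. Wilson intervals were wide and overlapped the share of the whole list in all but the COUP-TF genes, at 77.2 to 100 for these and 19.3 to 68.0 for the retinoid genes. They count neighbouring regions as if independent, which regions of 1 gene are not. Median widths were 458 bp at the COUP-TF genes and 85.5 to 125 bp at the other 5 subfamilies. Absolute scores of 100 or more came to 8 of 13 regions at the COUP-TF genes and 11 of 60 at the rest, beside 15.5% of all regions in the whole list.

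Among the steroid receptors, Esr1, the oestrogen receptor α gene, had a pair of positive regions 2.06 and 2.43 kb downstream of its inner annotated start. That start, at 4710158 on chromosome 10, lay 98.2 kb from the outer 5′ end of the gene. They scored 189 over 227 bp (4712220 to 4712446) and 239 over 228 bp (4712588 to 4712815). A weaker negative region lay 188 kb downstream of that start (-54.4). No other region was found within 50 kb of Esr1. Esr2 and Pgr, the oestrogen receptor β and progesterone receptor genes, had none, and a region of -98.3 stood 8.16 kb from Esr2.

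The remaining receptors had few regions, and where they were strong they were negative. Vdr, the vitamin D receptor gene, had 1, of -198 over 348 bp at chromosome 15, 97895776 to 97896123, inside the gene. Nr2c1, a testicular orphan receptor, had 1 of -156 over 233 bp (chromosome 10, 94172011 to 94172243). Nr5a1, the steroidogenic factor 1 gene, had 1 of -152 over 136 bp that spans the gene's upper end (chromosome 2, 38714453 to 38714588). Its relative Nr5a2, known for its role in bile acid and steroid synthesis, had 6, with 3 of each sign. They scored -139 over 588 bp at chromosome 1, 136881330 to 136881917, then -59.4, 50.8, 32.1, 31.4 and -23.4, that of 31.4 being the region before the inner start shown in the sequences.

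Weak regions only were found at 6 further genes. Nr1h4 (the bile acid receptor), Nr1i2 (a xenobiotic receptor), Nr1i3 and Hnf4a had 2, 2, 1 and 3, all negative, with strongest scores of -62.1, -40.7, -29.4 and -72.2. Ppard had 1 of each sign (58.7 and -56.0), and Nr6a1 had 1 of -20.6. Ppara, Nr1h2, Hnf4g, Nr2c2, Nr2e1, Nr2e3 and Nr0b2 had none, their nearest regions lying between 5.33 kb (Nr2c2) and 129.8 kb (Hnf4g) away.

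Few regions lay near the limit of 5 kb. Within it, 7 gene-to-region pairs stood beside a gene body. The 5 at Nr2f2 were at most 2.98 kb from the gene, and those nearest the limit were at Nr1d1 (74.9, at 4.19 kb) and Nr1i3 (-29.4, at 4.31 kb). Between 5 and 10 kb there were 12, of which 9 were negative, with 297 at Nr2f1 the strongest. That set included the Nr5a1 region of -152, which is also 8.78 kb from Nr6a1, and a region of 23.0 at 5.91 kb from Rara.

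Genes that work with the receptors were examined as a second list of 40, made up of corepressors, coactivators and enzymes or carriers of thyroid hormone, retinoids, steroids and vitamin D. A region was found at 22 of them, beside 35.1% of protein-coding genes, and per Mb of gene and flank the list held 16.1 regions, close to the 16.2 of protein-coding genes pooled. Only negative regions were found at 11 genes and only positive ones at 5, beside 18.2% and 7.33% of protein-coding genes. Of the 22 genes with a region these were 11 and 5, beside 3980 and 1604 of the 7679 protein-coding genes with a region. Together the genes of the second list held 60 regions, 71.7% of them negative. Retinoid handling genes had regions at 9 of 13, each with 1 sign only. Some of them, such as Rdh10 and Cyp26a1, had a single region and could not hold both signs. Cyp26b1, which degrades retinoic acid, had the highest score, 291 over 230 bp (chromosome 6, 84584239 to 84584468), and Crabp2, a carrier of retinoic acid, had 213 over 511 bp. Cyp26c1, another degrading enzyme gene, had -167 over 186 bp and shared a second region, of -101 over 71 bp, with its neighbour Cyp26a1, which encodes a related enzyme. Rdh10, which takes part in making retinoic acid, had -125 over 219 bp.

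Coactivator genes had regions at 5 of 9. Ppargc1a, which encodes PGC-1α, the coactivator of oestrogen-related receptors and PPARs, had 13 regions over 662 kb, 11 of them negative, with a strongest score of -241 over 508 bp (chromosome 5, 51894131 to 51894638). Nrip1, a corepressor gene, had 3 negative regions down to -82.8. Of the thyroid hormone handling genes 3 of 5 had a region, and the deiodinase gene Dio1 had the strongest, 112 over 103 bp at 4.58 kb from the gene. Steroid and vitamin D enzyme genes had regions at 3 of 6, none of absolute score 100 or more.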

How the data were processed

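Bisulfite sequencing of 2 libraries, 1 per group, gave the authors' deposited list of regions, with position and a signed score per region in column 4. Its coordinates are mm10, per the submitters' processing notes, while aligner, caller, cut-offs and coverage were not given in the sources used here. Scores as deposited by the authors served for ranking and filtering inside the list and for nothing else.

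Positions were read as BED and printed counting from 1. All 40 symbols were matched directly to the RefSeq table of GRCm38.p6, and 37 also to its table of start windows, which gave strand and sequence. Overlap meant at least 1 shared base, and a region near 2 members counted once in totals. The overlap code was tested on simulated data. Python 3.11.15, pandas 2.3.3 and scipy 1.17.1 were used.

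With 1 library per group no p-value was computed. Members and lists were chosen with earlier results of these data known. The genes given in full followed a rule set by subfamily, score of 100 or more and overlap with a start. For the second list, the 6 genes with the largest absolute score were named, besides Nrip1, which was added after its values were seen; 1 gene of that list is not reported here by name. Alternatives changed the window, score, width and overlap rule.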

Additional observations from a re-analysis of the deposited data

How the results depend on the processing

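No paired analysis was possible because each group was 1 library and the result comes from no test. Over 80 recomputed values, 63 stayed within 1.5 times a count or inside the interval of a share. With absolute scores of 100 or more, 15 members and 8 genes of the second list had a region, 25 regions were left at members (80.0% negative), and 3 members had only positive regions. The negative share was then 0% of 1 retinoid region, 100% of 1 thyroid region and 100% of 2 NR4A regions. With scores of 50 or more, 57 regions were left (NR4A 100% of 3 negative). With widths of 100 bp or more, 56 were left (NR4A 100% of 2), and 1 member had only positive regions. With 50 kb on both sides there were 163 regions, 1 member had only positive ones, and the COUP-TF share was 63.0% of 27. Without Rora the ROR share was 100% of 1 region. Each of these settings keeps fewer or more regions by construction. Gene bodies alone, region midpoints and leaving out Esrrg moved no value past those limits. Depth is unknown and limits every value.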
